A study of Mus musculus with 24 samples.

Results

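The levels of 9 heat shock protein and chaperone genes were followed across RNA-seq libraries of sorted CD8 T cells: Hspa1a, Hspa1b, Dnajb1, Hsph1, Hspa8, Hsp90aa1, Hsp90ab1, Hspd1 and Hspe1. They were listed by symbol and are 9 of the 24421 genes in the deposited count files. The list was chosen by their levels (CPM, read counts scaled to the reads counted in genes of each library) across the tissues and ages, so differences in the members' own levels are described with a fold change and its standard error (SE). Where calls on members are counted, the share of all genes called stands beside them and nothing is read from them. Counts of members or listed genes at an unadjusted p under 0.05 are given without such a share, and nothing is read from them either. Heat shock proteins are chaperones, which bind unfolded or newly made proteins and help them fold, assemble or be degraded. Most of them are present in unstressed cells, while a few genes are nearly silent until heat, oxidants, unfolded protein or cell handling activates heat shock factor Hsf1, which binds repeated nGAAn units in their promoters. In T cells, chaperones also serve the growth that follows activation, and tissue digestion and sorting are known to induce heat shock and immediate early genes.

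The cells had been sorted as CD45+CD3+CD8+ from the pancreas or blood of KC mice or WT B6 mice, and total RNA was sequenced. KC mice serve as a model of pancreatic cancer. The labels do not give the alleles, and they do not say whether animals were pooled. KC pancreas had 3 libraries each from mice aged 4 and 13 weeks and 2 each from mice aged 9, 20 and 30 weeks, which makes 12. KC blood had 3 libraries of 13 weeks, 2 each of 4 and 30 weeks and 1 each of 9 and 20 weeks, which makes 9. WT pancreas had 1 library of 9 weeks and 1 of 30 weeks, and WT blood had 1 library of 30 weeks. Single libraries are named by their titles, in which P8 stands for pancreas and B8 for blood.

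Reads counted in genes ranged from 6352070 to 16716169 per library, with a median of 9602257. Levels are given in CPM throughout. All 7 T cell markers that were found in the files, Cd3e and Cd8a among them, were detected in each library, and over all libraries Cd8a had 323977 counts against 6635 for Cd4. By traces of strongly expressed genes from other libraries, the libraries fell into 2 carry-over sets: all KC pancreas libraries of 4 and 13 weeks, the KC blood libraries Sample_131B8, Sample_42B8 and Sample_43B8 and all 3 WT libraries formed the first, and the rest formed the second. No member was among the 95 trace genes. Nothing in the labels says that libraries of a group came from separate animals, so p-values measure the spread between these libraries, which may be partly technical. In bulk RNA, fewer cells with a transcript and less of it per cell cannot be told apart.

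Hspa1a and Hspa1b, which both encode the stress-induced cytosolic HSP70, are neighbouring copies on the minus strand of chromosome 17. In GRCm38, the build named by the submitters as mm10, Hspa1b lies at chr17:34956436-34959238 and Hspa1a at chr17:34969190-34972156. Promoter sequences of RefSeq (GRCm38.p6) were matched for 6 of the 9 members: Hspa1a, Hspa1b, Dnajb1, Hsph1, Hspd1 and Hspe1. No sequence was matched for Hspa8, Hsp90aa1 and Hsp90ab1. The following stretches carry paired nGAAn units, the element that Hsf1 recognises, with the matched letters in capitals. The first one is the same, base for base, in Hspa1b at chr17:34959289-34959438 (minus strand), and it is shown because these genes differed most between tissues.
Hspa1a, chr17:34972207-34972356, minus strand: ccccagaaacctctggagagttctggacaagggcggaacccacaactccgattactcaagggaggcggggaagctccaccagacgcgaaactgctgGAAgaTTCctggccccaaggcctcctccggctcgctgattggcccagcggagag
Hsph1, chr5:149636351-149636380, minus strand: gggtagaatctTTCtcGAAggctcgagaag
Hspe1, chr1:55088053-55088082, plus strand: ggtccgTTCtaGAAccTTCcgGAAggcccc

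The motifs searched were GAANNTTC and TTCNNGAA, each of which reads the same on both strands, and their extensions GAANNTTCNNGAA and TTCNNGAANNTTC, which contain both and are each other's reverse complement. A pair of units was found in 66.7% of the 9 windows of the members, each covering the 250 bases before a start site, against 12.8% of 32851 such windows in the whole table. Runs of 3 units were found in 22.2% and 0.466% of them. The unit pair began 104 bases before the start site of both Hspa1a and Hspa1b. No pair was found in either window of Dnajb1 or in the other window of Hspd1. The run of units in the Hspe1 stretch also falls in a window of Hspd1, which is transcribed in the opposite direction. Both windows of Hsph1 hold the same pair, and Hspa1a and Hspa1b are copies. The windows are thus not independent, and the shares for the members count some sites more than once. A match of letters describes the sequence and does not show binding.

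The Hspa1a and Hspa1b coding sequences have 1926 and 1929 bases and differ by 8 substitutions and 3 gap columns, which makes them 99.4% identical. Of all 50-base windows of the Hspa1a coding sequence, 82.3% occur unchanged in that of Hspa1b. Reads of 50 bases from those windows would not map to a single place. After the coding sequence, no 50-base window of the 810 bases of Hspa1a or the 643 bases of Hspa1b is shared. For reads of that length, the counts of each copy would rest on these ends and on scattered differences. The read length is not given, so the counts are uncertain as measures of the separate genes. A stretch of 60 bases from position 1357 to 1416 of the coding sequence shows how few differences there are, with the differing bases in capitals.
Hspa1a: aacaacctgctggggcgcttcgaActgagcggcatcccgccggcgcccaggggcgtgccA
Hspa1b: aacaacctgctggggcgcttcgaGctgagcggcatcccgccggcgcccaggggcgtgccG

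Hspa1a was high in most KC pancreas libraries and close to absent in KC blood. At 4 weeks it had 28.0, 9.22 and 90.9 CPM in pancreas, at 9 weeks 0.526 and 41.5, at 13 weeks 37.1, 0.258 and 1.19, at 20 weeks 59.3 and 0.515, and at 30 weeks 8.95 and 36.5. In KC blood the lowest value was 0.132, the median 0.579 and the highest 0.916 CPM, from 1 to 9 reads per library. The pancreas values formed 2 groups, with 4 libraries from 0.258 to 1.19 CPM (Sample_94P8, Sample_132P8, Sample_133P8 and Sample_205P8) and 8 from 8.95 to 90.9. The low group held libraries of 3 ages, each of which also had a high library. Of the 12 pancreas libraries, 9 lay above the highest blood library, and 8 of the 9 pairs of pancreas and blood libraries with the same title number and age were higher in pancreas. The ratio of the medians was 32.1, and the fitted log2 change was 5.32 ± 1.21 (SE, 12 pancreas and 9 blood libraries).

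Hspa1b was higher in each of the 12 KC pancreas libraries than in any of the 9 KC blood libraries. In pancreas it had 54.3, 7.95 and 15.4 CPM at 4 weeks, 6.44 and 12.8 at 9 weeks, 3.21, 1.16 and 1.09 at 13 weeks, 7.08 and 17.2 at 20 weeks, and 86.6 and 5.20 at 30 weeks. In blood it ranged from 0 (Sample_42B8) through a median of 0.356 to 0.696 CPM, from 0 to 6 reads per library. A count of 3 reads, the limit that a count of 0 allows, came to 0.273 CPM in Sample_42B8, so its value cannot be told from those of several other blood libraries. The groups did not overlap, and the smallest pancreas value, 1.09 CPM in Sample_133P8, came from 10 reads. Among the 11059 genes tested between the tissues, Hspa1b was the only one with each pancreas library above each blood library (0.00904%); it was listed with its levels known, and nothing is read from that share. The fitted log2 change was 5.38 ± 1.31 (SE).

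The copies did not follow each other library by library. The ratio of Hspa1a to Hspa1b reads in KC pancreas ran from 0.0299 in Sample_205P8 (5 against 167 reads) to 11.6 in Sample_131P8 (336 against 29 reads). Across the 12 pancreas libraries their Spearman correlation was 0.18, which is a description over libraries that also differ in depth and age. Taken as a sum, which does not depend on how reads were split between them, the copies had 1.42 to 106 CPM in pancreas and 0.455 to 1.53 CPM in blood. The lowest sum in pancreas, in Sample_132P8, lay below the highest sum in blood, so the sums overlapped.

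**Figure D1:**
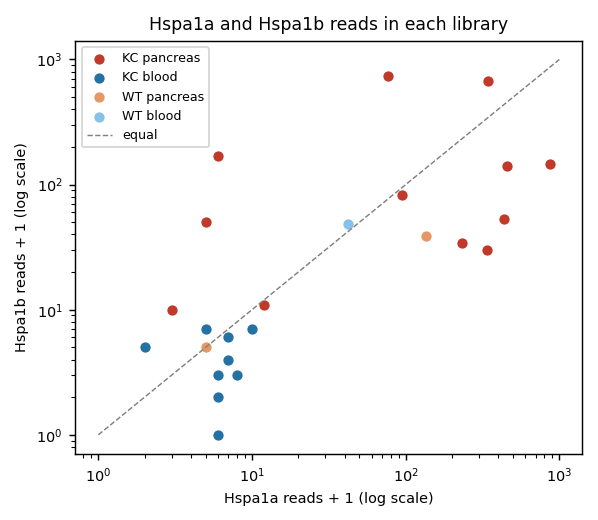
Reads of Hspa1a (x axis) and Hspa1b (y axis) plus 1 in each of the 24 libraries, on log scales, with colours for the 4 groups and a dashed line where both are equal. The 9 KC blood libraries sit below 10 reads on both axes, and the KC pancreas libraries scatter on both sides of the line with ratios from 0.0299 to 11.6.

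Dnajb1, the HSP40 partner that delivers unfolded protein to HSP70 and starts its ATP hydrolysis, varied widely in both tissues. It had 5.56, 89.7 and 378 CPM as the lowest, median and highest value in KC pancreas and 7.32, 66.5 and 284 CPM in KC blood. The ranges overlapped nearly completely, and 5 of 9 pairs of libraries with the same title number were higher in pancreas. Within pancreas the highest library, Sample_302P8, had 67.9 times the level of the lowest, Sample_132P8. The same pair of libraries was at or near the top and bottom for Hspa1b, and the Spearman correlation of Dnajb1 with Hspa1b over the 12 pancreas libraries was 0.73. The fitted log2 change between tissues was 0.63 ± 0.68 (SE), less than its own error.

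Hsph1, the HSP110 protein that exchanges nucleotide on HSP70, had 46.8, 275 and 780 CPM as the lowest, median and highest value in KC pancreas. In KC blood these were 13.2, 179 and 727 CPM. One pancreas library exceeded the highest blood library, and 6 of 9 pairs were higher in pancreas. The fitted log2 change was 0.76 ± 0.53 (SE), and it was -0.74 within the first carry-over set.

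The constitutive cytosolic chaperones were abundant and steady by comparison. Hspa8, the everyday HSP70 of the cytosol, ran from 1556 through a median of 1988 to 3861 CPM in KC pancreas and from 949 through 1793 to 2528 CPM in KC blood. Its highest pancreas library had 2.48 times the level of the lowest, the narrowest spread of the 9 members. The fitted log2 change was 0.51 ± 0.33 (SE), and within the first carry-over set it was -0.24. The small nucleolar RNA genes Snord14c and Snord14d lie within Hspa8 and overlap its exons by 86 bases each.

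Hsp90aa1 and Hsp90ab1 encode the inducible and the constitutive form of cytosolic HSP90, which keeps kinases and hormone receptors ready for activation. Hsp90aa1 had 341, 863 and 1775 CPM as the lowest, median and highest value in KC pancreas and 292, 481 and 1015 CPM in KC blood. In Hsp90aa1, 4 pancreas libraries lay above all blood libraries, 8 of 9 pairs were higher in pancreas, and the log2 change was 1.09 ± 0.37 (SE). It moved between 0.03 and 1.33 under the alternatives tried. Hsp90ab1 had 551, 1038 and 2954 CPM in pancreas and 300, 699 and 1490 CPM in blood. It was higher in pancreas in 7 of 9 pairs, with a log2 change of 0.87 ± 0.36 (SE). For both genes the ranges of the tissues overlapped.

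Hspd1 and Hspe1 encode HSP60 and its lid HSP10, which together form the folding chamber of mitochondria. They lie head to head on chromosome 1 and their exons overlap by 112 bases, and since strand use is not stated in the sources used here, reads from the overlap cannot be assigned. Hspd1 had 80.9, 315 and 1240 CPM as the lowest, median and highest value in KC pancreas and 81.1, 198 and 518 CPM in KC blood. Hspe1 had 53.4, 196 and 415 CPM in pancreas and 40.8, 158 and 494 CPM in blood. Their log2 changes were 0.65 ± 0.49 and 0.04 ± 0.53 (SE), they were -0.37 and -1.29 within the first carry-over set, and 4 of 9 pairs were higher in pancreas for each. Although both proteins are made for the same complex, their transcripts diverged in single libraries. Sample_133P8 had the highest Hspd1 and the lowest Hspe1 of the KC pancreas libraries, and Sample_302B8 had the highest Hspd1 and the lowest Hspe1 of the KC blood libraries. Their Spearman correlation was 0.38 in pancreas (n = 12) and -0.23 in blood (n = 9).

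**Figure D2:**
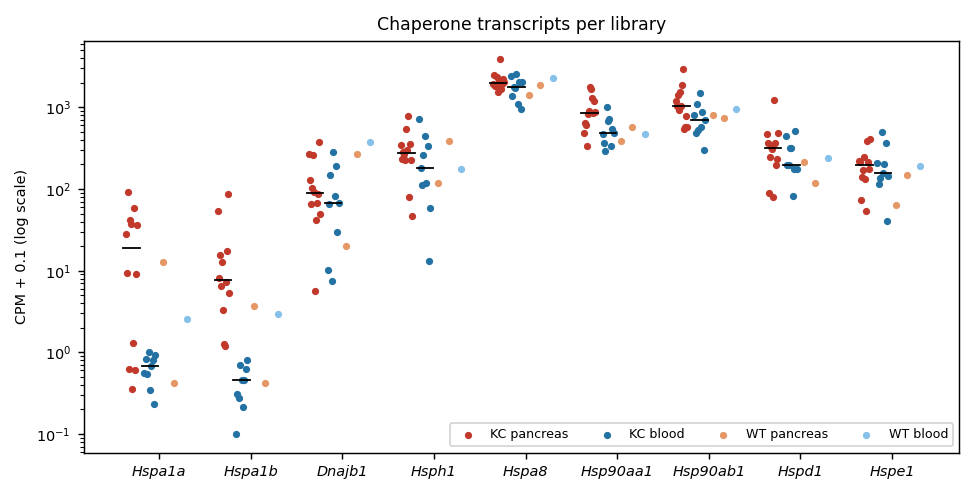
CPM plus 0.1 of the 9 members on a log scale in each library, with colours for KC pancreas, KC blood, WT pancreas and WT blood and black lines at the medians of the KC groups. Hspa1b is the member whose KC pancreas points all lie above its KC blood points, and the constitutive members overlap between tissues.

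Per kilobase of annotated exon, the order of the median levels was the same in both tissues. Hspa8 was first, at 462 CPM per kilobase in KC pancreas and 417 in KC blood, followed by Hsp90ab1 (346 and 233) and Hsp90aa1 (219 and 122). Hspe1 (107 in blood) and Hspd1 (119 and 75.0) came next, and then Hsph1 (37.9 and 24.6) and Dnajb1 (28.0 and 20.8). Hspa1a (6.28 and 0.195) and Hspa1b (2.68 and 0.127) were last. Both were divided by their full exon length, although 58.8% and 62.3% of their 50-base windows occur in the other copy. Their values may therefore be too low beside those of the other members. Neighbours in this order overlapped in range in pancreas: Hspa8 exceeded Hsp90ab1 in 9 of 12 libraries, Hsph1 exceeded Dnajb1 in 6 of 12, and Hspa1a exceeded Hspa1b in 7 of 12. Together the 9 members held 0.392% to 1.06% of the counts of a KC pancreas library (median 0.485%) and 0.240% to 0.590% of those of a KC blood library (median 0.377%).

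All 9 members had a positive fitted log2 change between KC pancreas and KC blood, with a median of 0.76, although that of Hspe1 turned to -0.04 with RLE scaling and those of Hsph1, Hspa8, Hspd1 and Hspe1 were negative within the first carry-over set. The median over all 11059 genes was -0.12 and 45.4% of them were positive. With edgeR's quasi-likelihood test and an adjusted p under 0.05 over all genes, none of the 9 was called, beside 0.0904% of all genes called. An unadjusted p under 0.05 was found for 4 members, a looser threshold to which that share does not apply. DESeq2 called Hspa1a and Hspa1b, beside 1.40% of all genes called higher in pancreas. With edgeR, both were called when Sample_131B8 was left out (21 of 11032 genes called) or the age term dropped (0.263% of all genes called higher). Hspa1a was also called with no filter on low counts (34 of 15248 genes called). Leaving out Sample_94P8, Sample_132P8, Sample_133P8 or Sample_205P8 led to a call of Hspa1a too, beside 6 to 21 genes with any 1 library left out. These are the 4 pancreas libraries with little Hspa1a, so each omission raised its mean level in pancreas. The members were listed for these levels, so the calls are no evidence of their own. The fold changes of Hspa1a and Hspa1b stayed positive under each of the 29 alternatives, from 4.30 to 5.90 and from 3.90 to 6.03.

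**Figure D3:**
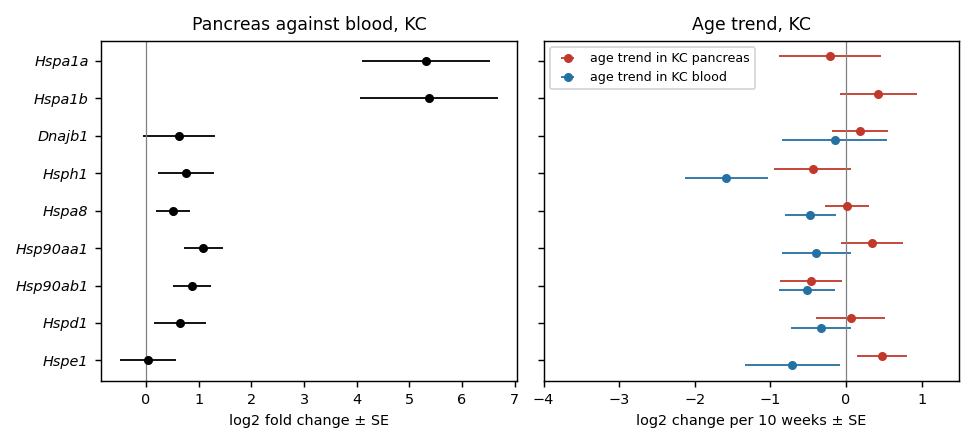
Fitted log2 changes of the 9 members with standard errors as bars: KC pancreas against KC blood on the left, and the age trend per 10 weeks in KC pancreas and in KC blood on the right. Hspa1a and Hspa1b stand at 5.32 and 5.38 on the left, and on the right the 7 members with a fitted blood trend lie below 0, the lowest of them Hsph1 at -1.58.

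Markers of other cells differed between the same groups. The summed level of 13 acinar genes was 0.103 to 8426 CPM in KC pancreas and 0.0896 to 69.1 CPM in KC blood, with 1 to 13 of them detected in a library. Acinar sums were 0.103 to 483 CPM in the 4 pancreas libraries with little Hspa1a and 0.136 to 8426 CPM in the other 8. Sample_43P8, with the highest Hspa1a, had 4221 CPM, and Sample_204P8, with the next highest, had 0.136 CPM. The summed level of 8 fibroblast genes was 0 to 690 CPM in KC pancreas, highest in Sample_43P8, and 0 to 1.95 CPM in KC blood. That of 9 macrophage and monocyte genes was 1.88 to 373 CPM in pancreas, highest in Sample_302P8, the library with the most Hspa1b and Dnajb1, and 2.44 to 343 CPM in blood. The sum of 6 duct genes was 0.118 to 334 CPM and 0.119 to 1.16 CPM, with Cftr at 0 in each KC library. Its highest value was in Sample_133P8, which also had the most Hspd1, Hsph1, Hspa8 and Hsp90ab1, and the next was 29.6 CPM in Sample_205P8. The sum of 6 endothelial genes was 6.05 to 253 CPM and 12.8 to 522 CPM, with Kdr at 0. The 8 platelet genes summed to 1.89 to 94.2 CPM in pancreas and 39.7 to 291 CPM in blood, and 6 B cell genes to 0.543 to 95.5 CPM and 0.455 to 75.7 CPM. Of the neutrophil genes, Mpo, Elane, Camp and Ngp were at 0, and the list summed to 0.217 to 26.1 CPM and 1.64 to 35.4 CPM. Erythroid genes summed to 4.13 to 94.1 CPM in pancreas and 24.4 to 495 CPM in blood, with the haemoglobin genes Hba-a1, Hba-a2, Hbb-bs and Hbb-bt at 0. The part of other cells in the levels of the members was not tested.

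Age was compared next, because the study followed the mice as lesions progress. In KC pancreas no member rose or fell steadily: slopes per 10 weeks ranged from -0.46 ± 0.41 (SE) for Hsp90ab1 to 0.48 ± 0.33 for Hspe1. Of the 9 slopes 6 were positive, beside 47.5% of those of all genes. Hspa1a had a slope of -0.21 ± 0.67, Hspa1b of 0.43 ± 0.51, Dnajb1 of 0.19 ± 0.37 and Hsph1 of -0.44 ± 0.51. The slopes of Hspa1b and Dnajb1 turned to -0.61 and -0.56 without Sample_302P8, the 30-week library that was highest in both, the slope of Hspa1a turned to 0.37 without Sample_43P8, and that of Hsph1 to 0.01 without Sample_303P8. With the carry-over set as a term, the slopes of Hsp90ab1 and Hsph1 turned to 0.12 and 0.20, and those of the other members kept their sign. The pancreas libraries of 4 and 13 weeks all lie in the first set and those of the other ages in the second, so age and set are partly mixed. Within the first carry-over set, which spans 4 and 13 weeks, the slopes were -1.64 for Hspa1a, -3.38 for Hspa1b and -1.14 for Dnajb1. In the same set they were 1.99 for Hsph1, 1.39 for Hspa8, 2.57 for Hsp90aa1, 1.83 for Hsp90ab1, 2.02 for Hspd1 and 0.67 for Hspe1. These slopes come from a fit with TMM scaling, which CPM does not use. Mean CPM at 4 and 13 weeks was 171 and 144 for Hspe1, 2077 and 2504 for Hspa8, and 285 and 540 for Hsph1. It was 577 and 1452 for Hsp90aa1, 1221 and 1964 for Hsp90ab1, and 311 and 542 for Hspd1. The part of the scaling in the slopes was not tested. At 13 weeks Hspa1b had its 3 lowest values, 1.09 to 3.21 CPM, below those of each other age. At the same age Hsp90aa1 and Hsp90ab1 had their 2 highest values, 1684 and 1775 CPM and 2954 and 1900 CPM, in Sample_133P8 and Sample_132P8. No member was called by edgeR for the pancreas trend, beside 0.293% of 9555 genes, and none had an unadjusted p under 0.05. DESeq2 called none of the members either.

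In KC blood, Hspa1a and Hspa1b did not pass the filter on low counts, which left 7 members. All 7 slopes were negative, with a median of -0.47 per 10 weeks against -0.12 over 9933 genes, of which 43.9% had a positive slope. Hsph1 had the steepest slope, -1.58 ± 0.55 (SE): it had 727 and 179 CPM at 4 weeks, 111 at 9 weeks, 261, 445 and 118 at 13 weeks, 334 at 20 weeks, and 13.2 and 58.3 at 30 weeks. Both libraries of 30 weeks thus lay below all younger ones, and the slope stayed negative, from -1.82 to -0.43, under each of 15 alternatives. The slopes of the other 6 ranged from -0.71 ± 0.63 for Hspe1 to -0.15 ± 0.69 for Dnajb1. Those of Hsp90aa1, Hspd1 and Hspe1 turned positive with the carry-over set as a term, at 0.25, 0.47 and 0.16, and that of Dnajb1 turned to 0.33 without Sample_302B8 and to 0.13 without Sample_303B8. Within the first set, which holds 3 blood libraries of 4 and 13 weeks, 5 of the 7 slopes were positive, from 0.17 for Hsp90ab1 to 2.31 for Hspe1. The blood libraries of 30 weeks, Sample_302B8 and Sample_303B8, also had the smallest shares of their tallied reads assigned to genes, 14.1% and 15.0%, and the part of this in the slopes was not tested. With edgeR no member and 0% of all genes was called, 1 member had an unadjusted p under 0.05, and DESeq2 called no member.

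**Figure D4:**
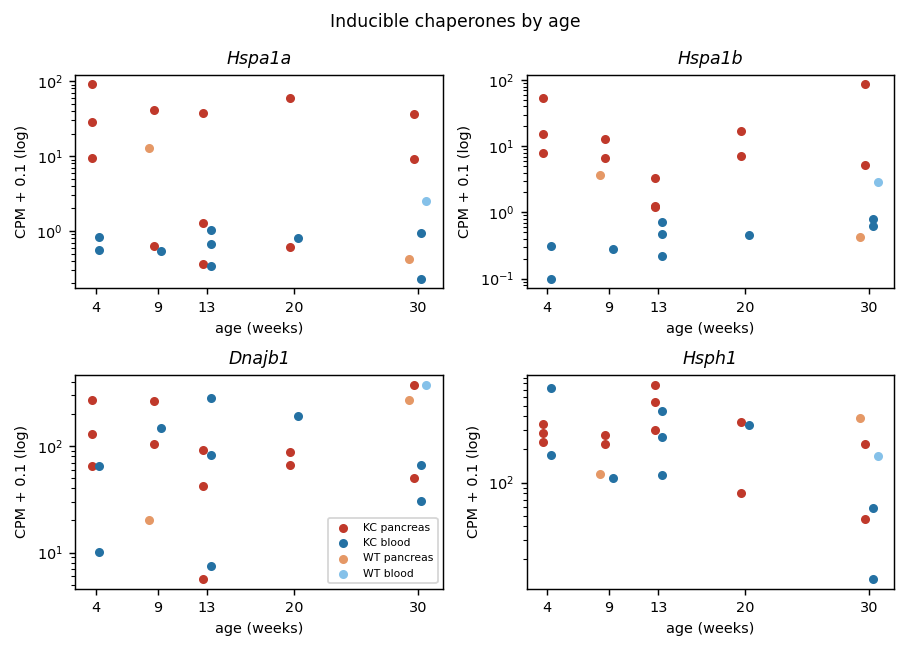
CPM plus 0.1 on log scales against age in weeks for Hspa1a, Hspa1b, Dnajb1 and Hsph1, with 1 point per library, shifted slightly by group, and colours for the 4 groups. Hspa1b dips at 13 weeks in KC pancreas, and Hsph1 in KC blood is lowest in the libraries of 30 weeks, at 13.2 and 58.3 CPM.

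Genotype could be compared in pancreas at 9 and 30 weeks, with 1 WT library at each age. WT pancreas had 12.8 CPM of Hspa1a at 9 weeks and 0.319 at 30 weeks, against 0.526 and 41.5 in KC at 9 weeks and 8.95 and 36.5 at 30 weeks. For Hspa1b the WT values were 3.61 and 0.319 CPM, below the KC values of the same age, which were 6.44 and 12.8 at 9 weeks and 86.6 and 5.20 at 30 weeks. The WT blood library of 30 weeks had 2.45 CPM of Hspa1a and 2.81 CPM of Hspa1b, from 41 and 47 reads, above each KC blood library and above WT pancreas of that age. Hspa1a and Hspa1b were thus higher in blood than in pancreas in the 1 WT pair of 30 weeks, opposite to most KC pairs.

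The fitted log2 change of KC against WT pancreas was 4.19 ± 2.29 (SE) for Hspa1b and 3.14 ± 2.07 for Hspa1a. These values rest on the WT libraries: with 1 of the 2 left out, that of Hspa1a was 0.02 or 6.25 and that of Hspa1b was 1.06 or 7.32. Dnajb1 had 20.0 and 272 CPM in WT pancreas and a log2 change of 1.33 ± 1.30, and Hsph1 had 120 and 390 CPM and a change of -0.22 ± 0.87. The constitutive and mitochondrial members changed by 0.18 (Hsp90ab1) to 1.11 (Hspe1), and the median of the 9 was 0.96 against 0.41 over 12374 genes. None of the 9 was called by edgeR, beside 0.226% of all genes, and none had an unadjusted p under 0.05, while DESeq2 called Hspa1b, beside 0.968% of all genes called higher in KC. Other-cell markers and RNA composition moved with genotype: acinar sums were 3531 and 967 CPM in WT pancreas and 0.131 to 59.0 CPM in the KC pancreas libraries of 9 and 30 weeks, and the ribosomal RNA precursor Rn45s held 18.2% and 17.0% of counts against 2.63% to 12.1%. Their part in these values was not tested. The KC pancreas libraries of 9 and 30 weeks and the WT libraries lie in different carry-over sets, so genotype and set cannot be told apart.

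The genes that work with the members were described from 8 lists holding 101 genes, none of them a member. Between KC pancreas and KC blood 88 of the 101 passed the filter on low counts, and edgeR called none of them at an adjusted p under 0.05. Their median log2 change was 0.08, 46 were positive and 5 had an unadjusted p under 0.05, 4 of these with a higher level in pancreas. DESeq2 called 3 (Lonp1, Pfdn6 and Dnaja4), or 3.75% of the 80 it tested, beside 3.95% of all genes. Lonp1, a protease of the mitochondrial matrix, had a median of 17.3 CPM in pancreas and 0.412 CPM in blood and a log2 change of 4.20 ± 1.16 (SE, edgeR adjusted p = 0.134). Pfdn6, a prefoldin subunit, changed by 2.79 ± 1.26 (edgeR adjusted p = 0.452), and Dnaja4, another HSP40, by -4.05 ± 1.41 (edgeR adjusted p = 0.267) at median levels of 0.268 and 1.11 CPM.

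The regulators of the heat shock response did not pass the test between tissues. Hsf1, the main heat shock factor, had medians of 13.0 CPM in pancreas and 39.6 CPM in blood and a log2 change of -0.46 ± 1.09 (SE, edgeR adjusted p = 0.935). Hsf2 changed by -0.94 ± 1.26 and Hsbp1, which binds heat shock factors, by 0.96 ± 0.65. Hsf4 did not pass the filter. Among 10 small heat shock proteins 3 passed the filter, and Hspb2, Hspb3, Cryaa and Cryab were at 0 in all KC libraries. Hspb11 was the one of them with at least 10 CPM on average, and it changed by -0.07 ± 1.03.

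Of 20 HSP70 cochaperones, all were tested, 10 were positive and the median was 0.04. Bag3, which links HSP70 to autophagy and is itself a classical heat shock gene, had medians of 2.86 and 4.52 CPM and a change of 0.52 ± 1.10 (SE). Dnaja1, the most abundant cytosolic HSP40 of the list, had 579 and 450 CPM and a change of 0.78 ± 0.40 (edgeR adjusted p = 0.520). Bag6 had the highest change among those of at least 10 CPM on average, 1.37 ± 1.17, and Bag4 the lowest, -1.73 ± 0.96. Of the 16 HSP90 cochaperones, 5 were positive, and Nudc had the highest change among those of at least 10 CPM, 2.11 ± 1.06. Of the 14 subunits of the cytosolic chaperonin and prefoldin, 8 were positive, with a median of 0.31. Of the 15 endoplasmic reticulum chaperones tested, 13 were positive, with a median of 0.27, Dnajb9 at 1.30 ± 0.68 and Creld2 at -1.52 ± 1.20, and 1 had an unadjusted p under 0.05.

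For the other comparisons edgeR also called none of the listed genes: 0 of 82 for the pancreas trend (5 at an unadjusted p under 0.05), 0 of 85 for the blood trend (6) and 0 of 91 for genotype (4). The lowest adjusted p in the pancreas trend was that of Hspbp1, an HSP70-binding protein, with a slope of -3.27 ± 0.87 (SE, edgeR adjusted p = 0.147). In the blood trend it was that of Hspa13, an HSP70 of microsomes, with -2.43 ± 0.64 (edgeR adjusted p = 0.248). A positive slope was found for 28 of 85 listed genes in that trend, beside 43.9% of all genes. In the genotype comparison Grpel1, the nucleotide exchange factor of mitochondrial HSP70, was the lowest of its list at -4.70 ± 1.86 (edgeR adjusted p = 0.757). DESeq2 called 4 listed genes in the pancreas trend (5.19%, beside 6.48% of all genes), 4 in the blood trend, Hspa13 among them (4.76%, beside 3.15%), and 0 in the genotype comparison (beside 1.36%). Leaving out Sample_43P8, edgeR called Hsf2 in the pancreas trend, at 2.99 ± 0.57 (adjusted p = 0.0254), against 1.24 ± 0.54 (adjusted p = 0.477) with all 12 libraries.

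Immediate early genes, whose transcription starts quickly after a stimulus or after cell handling, were set beside the members because both kinds of gene respond to cell handling. Of 23 such genes edgeR called 5, all higher in KC pancreas than in KC blood, beside 0.0904% of all 11059 genes. An unadjusted p under 0.05 was found for 13 of them. The list was chosen with earlier results of these data known, so these calls and the relations below are no independent evidence. Fos, a subunit of the AP-1 transcription factor, had medians of 32.3 and 0.593 CPM and a log2 change of 5.50 ± 1.07 (SE, edgeR adjusted p = 0.00771). Fosb changed by 5.26 (edgeR adjusted p = 0.00755), Egr1 by 3.92 ± 0.69 (0.00223), Dusp1 by 2.92 ± 0.57 (0.00771) and Nr4a1 by 5.11 ± 1.03 (0.0135). The summed level of the 23 genes was 1205 to 6095 CPM in KC pancreas and 398 to 1597 CPM in KC blood.

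Within KC pancreas, the mean of log2(CPM + 1) over the 23 genes was compared with each member. For Hspa1a, the 4 libraries with little of it had the 4 lowest immediate early means, 3.46 to 3.94, and the 8 others had means of 4.57 to 6.62. Over the 12 libraries Hspa1a had Pearson's r = 0.69 (permutation p = 0.0159, two-sided, adjusted p = 0.0832) and Spearman's rho = 0.65 (permutation p = 0.0255, adjusted p = 0.230), and neither passed the adjustment over the 9 members. With Fos alone in place of the 23 genes, r was 0.53 (permutation p = 0.0733, adjusted p = 0.267) and rho was 0.29 (permutation p = 0.355, adjusted p = 0.639). Without the 2 libraries farthest from the median of the immediate early mean, r was 0.82 (permutation p = 0.00538, adjusted p = 0.0484) and rho was 0.73 (permutation p = 0.0197, adjusted p = 0.178). Within the first carry-over set r was 0.95 (exact permutation p = 0.00694, adjusted p = 0.0625) and rho 0.94 (exact permutation p = 0.0167, adjusted p = 0.150), and within the second r was 0.44 (exact permutation p = 0.392), with 6 libraries in each. These coefficients span the gap between the low and the high group. Among the 8 libraries of the high group r was -0.36, which is given as a description because the group was picked by the level of Hspa1a itself.

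Hspa1b and Dnajb1 had positive coefficients that did not pass the adjustment over the 9 members. Hspa1b had r = 0.62 (permutation p = 0.0337, adjusted p = 0.101) and rho = 0.50 (permutation p = 0.0977, adjusted p = 0.293) over 12 libraries. Dnajb1 had r = 0.65 (permutation p = 0.0185, adjusted p = 0.0832) and rho = 0.54 (permutation p = 0.0761, adjusted p = 0.293). Without the 2 libraries farthest from the median of the immediate early mean, Sample_132P8 and Sample_302P8, r fell to 0.26 for Hspa1b and 0.30 for Dnajb1, so both relations rest on those libraries. Within the carry-over sets of 6 libraries each, r was 0.60 and 0.78 for Hspa1b and 0.73 and 0.75 for Dnajb1, and none of these 4 values had an exact permutation p under 0.05. The other 6 members had r from -0.19 (Hspa8) to 0.09 (Hspe1), with permutation p of 0.567 or more.

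**Figure D5:**
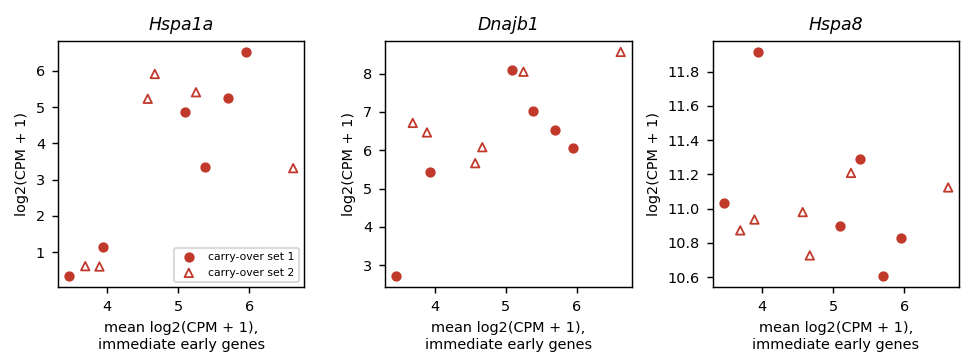
Mean log2(CPM + 1) of 23 immediate early genes (x axis) against log2(CPM + 1) of Hspa1a, Dnajb1 and Hspa8 (y axes) in the 12 KC pancreas libraries, with filled circles for carry-over set 1 and open triangles for set 2. Hspa1a forms a low group of 4 libraries at immediate early means of 3.46 to 3.94 and a high group of 8, Dnajb1 has its lowest and highest values at the ends of the x axis, and Hspa8 shows r = -0.19.

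The genes most like a member were taken as those with the highest Spearman correlation of log2(CPM + 1) over the 21 KC libraries, which differ in tissue, depth and carry-over set. Among 11050 genes, those most like Hspa1a were Fosb (rho = 0.74), Dusp1 (0.74), Fos (0.69), Cog7 (0.69) and C920009B18Rik (0.67). Of these 5, 3 belong to the immediate early list, and the same 3 were called higher in KC pancreas than in KC blood. Hspa1a was close to absent in each KC blood library, so genes that differ between the tissues rank high, and nothing is read from this count. For Dnajb1 they were Ddx52 (0.86), Tceb3 (0.82), Tollip (0.81), Sft2d3 (0.80) and Trappc2l (0.80). Of these, Sft2d3 had medians of 0.703 CPM in KC pancreas and 0.348 in KC blood, and Trappc2l 0.134 and 0, which rest on few reads. For Hspa8 they included Cst3 (0.88), Atpif1 (0.72), Gimap7 (0.69) and Polr2f (0.65), the last at medians of 1.71 and 0.695 CPM. For Hspd1 they were Mcm2 (0.78), Capns1 (0.71), Ik (0.70), Vma21 (0.69) and Tbl1x (0.68). The 4 lists share no gene, and none was made for the other 5 members. Each list holds the highest of 11050 coefficients over 21 libraries, so nothing is read from their size.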

How the data were processed

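Gene-level read counts of 24 libraries of sorted T cells were used as the authors deposited them, unnormalised, with 5 tallies of unassigned reads kept out of totals and tests. The submitters' processing notes name TopHat, SAMtools, HTSeq and DESeq and the build mm10; annotation, read length and strand use are not given in the sources used here. Between 11.7% and 32.5% of tallied reads were in genes. The members and all gene lists were chosen with earlier results of these data known.

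Two-sided quasi-likelihood F-tests with robust dispersion were run in edgeR 4.0.16 (R 4.3.3) after TMM scaling and filterByExpr at its minimum count, 10. A gene was called at a Benjamini-Hochberg adjusted p under 0.05 over all genes. The SE is the log2 change over the root of the F statistic. The tissue fit held 21 libraries (KC), with a factor for age. A trend fit held the KC libraries of 1 tissue (12 pancreas, 9 blood), with numeric age per 10 weeks. Genotype used 14 pancreas libraries with a mean per genotype and age and the contrast at 9 and 30 weeks. Correlations used 100000 permutations, or all of them for up to 8 libraries, and the split of Hspa1a was made after seeing the data. DESeq2 1.42.0, other scaling, filters, terms and left-out libraries were alternatives. Each library's group and age are those of its own labels, which give 9 weeks for 4 libraries although the series' design text does not list that age. Named pathway genes were those called, the highest and lowest of each list with a mean of at least 10 CPM, and some named after their values were seen (Hsf1, Hsf2, Hsbp1, Bag3, Dnaja1, and those called by another tool or with the lowest adjusted p). Carry-over sets grouped libraries by where 95 genes were detected. These genes reached 100 CPM in 1 library and at most 5% of their level there in each other library. Detection was 92.4% within a set and 47.7% across sets. The number of sets was fixed at 2 and the split was chosen for the most detection within sets, so these shares do not test it. The edgeR fits were tested on simulated data with 200 genes changed. Of log2 changes of 1, 0% were called between tissues and 0% for genotype. Of changes of 2 these shares were 8.96% and 0%, and of changes of 4 they were 51.5% and 6.06%. Slopes of 2 per 10 weeks were called in 29.9% of cases in pancreas and 23.9% in blood. Genes that edgeR did not call may therefore still differ. Some genes are counted in these results and not reported by name.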

Additional observations from a re-analysis of the deposited data

How the results depend on the processing

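Between KC pancreas and KC blood edgeR called 10 genes, and the count was 489 with DESeq2, 34 with no filter on low counts, 65 with no age term, 6 and 5 within the first and second carry-over set, and 6 (without Sample_302P8) to 21 (without Sample_131B8) with 1 library left out. For the pancreas trend 28 genes were called, against 745 with DESeq2, 686 with no filter, 0 with the carry-over set as a term, 0 in either set alone, and 10 (without Sample_42P8) to 31 with 1 library left out. For the blood trend 0 were called, against 411 with DESeq2, 102 with no filter, 25 in the first set alone, and up to 12 (without Sample_302B8 or Sample_303B8). For KC against WT pancreas 28 were called, against 180 with DESeq2 and 4 (without Sample_W1P8) to 29 with 1 library left out. Of the listed chaperone-pathway genes edgeR called 0 in each comparison. DESeq2 called 3 between tissues, 4 in the pancreas trend and 4 in the blood trend. With no filter 2 were called in the pancreas trend and 1 in the blood trend, and with 1 library left out 0 to 1 in the pancreas trend. The count of members whose rho with the immediate early genes passed the adjustment was 0, and 0 to 1 with 1 library left out (Hspa1a, without Sample_302P8). The causes were not tested. Whether libraries with the same title number came from the same animal could not be decided. They correlated, after removing group means, at -0.0561 to 0.0093 in 7 pairs, none of which matched best. The pairs from the oldest mice share the value 0.0093, because deviations within a group of 2 libraries mirror each other. Such deviations need not carry over between tissues of the same animal, so low values do not exclude shared animals. The counts of pairs go by title number and age alone. With the replicate block 14 genes and 0 pathway genes were called between tissues. Of 1057 recomputed values, 63 moved by more than the spread between replicates, or by over 1.5 times for a count. Of 690 recomputed log2 changes of members, 53 had the other sign: 17 between tissues, 21 in the pancreas trend, 11 in the blood trend and 4 for genotype. Between tissues, the signs of Hspa1a, Hspa1b, Dnajb1, Hsp90aa1 and Hsp90ab1 held in 29 of 29 alternatives, those of Hsph1, Hspa8 and Hspd1 in 28, and that of Hspe1 in 15. Within-tissue levels of Hspa1a and Hspa1b in blood are limited by depth.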
